A study of Mus musculus with 17 samples.

Results

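Immunoglobulin genes encode the heavy and light chains of antibodies. In a B cell, a variable (V) segment is joined to a joining (J) segment, with a diversity segment between them in the heavy chain, and the joined exon is spliced to a constant region that sets the class of the antibody. IgM is the class made first, IgG and IgA follow after class switching, and the joining chain Jchain links IgM and IgA into polymers. Plasma cells, the end stage of the B cell lineage, secrete antibody, and in brain tissue such cells are known mainly from the meninges, the choroid plexus and inflamed parenchyma.

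The rows described here are the immunoglobulin V, J and constant region genes and Jchain that a table of gene counts from mouse hippocampus held with at least 1 count, found by gene name. There were 53 of them among 24652 genes in the table: 17 heavy, 22 kappa and 1 lambda V segments, 3 heavy and 1 kappa J segments, 6 heavy constant regions (Ighm, Igha and 4 IgG genes), Igkc, Iglc1 and Jchain. The table came from 3 libraries, 1 for each group of C57BL/6 mice: ApoE shRNA with FC, control shRNA with FC, and control shRNA without FC. All 3 groups received a short hairpin RNA (shRNA), aimed at the astrocyte lipoprotein gene Apoe in the first group only; the labels give neither the age of the mice, nor how many were pooled, nor what FC stands for. Another 14 libraries came from primary neurons in 7 groups of 2: ADM and its control, ApoE particle and control (set 1), and reconstituted ApoE particle, ApoE particle and control (set 2). ADM is likewise not spelled out.

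The total was 18.90 M counts for ApoE shRNA with FC, 17.79 M for control shRNA with FC and 18.17 M for control shRNA without FC. Levels are given in CPM, counts scaled to these totals. Apoe stood at 1384 CPM in ApoE shRNA with FC, 2797 in control shRNA with FC and 1697 in control shRNA without FC. Markers of hippocampal neurons summed to 2593, 1777 and 2467 CPM in that order, with all 8 listed and above 0 in each library. The library of control shRNA with FC stood apart from the other 2: of 17940 genes that reached 10 counts in 1 of the libraries compared, 2601 were at least 2-fold lower in ApoE shRNA with FC than there, and 559 were at least 2-fold higher. Each group had 1 library, so no difference between hippocampus groups was tested, and every interval below is an exact 95% binomial interval that covers counting error only. In bulk tissue, fewer cells of a type and less RNA per cell cannot be told apart.

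The table listed no gene with counts in a single library. All of its genes had counts in at least 2 of 3, 3110 of them in exactly 2, so a V segment read in 1 library alone would not be among the rows. Heavy chain genes lay on chromosome 12 and kappa genes on chromosome 6 of build mm10, and the positions of all 53 rows matched those of GENCODE release M21.

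The sequences of the leading V segments are shown because counts are given per class. V segments of a family can be near copies, and reads from them can be assigned to a neighbour or set aside. The ends below are the last 60 coding bases, on the coding strand, of the V segments that ranked first or second in a control library, taken from the GENCODE transcripts. Capitals mark the codon of the conserved cysteine, after which the join to D or J takes place.
Ighv1-9 (chr12:114583569-114583628, minus strand): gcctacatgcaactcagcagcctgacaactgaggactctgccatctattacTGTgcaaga
Ighv1-26 (chr12:114788372-114788431, minus strand): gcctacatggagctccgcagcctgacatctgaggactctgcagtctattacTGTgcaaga
Ighv1-7 (chr12:114538495-114538554, minus strand): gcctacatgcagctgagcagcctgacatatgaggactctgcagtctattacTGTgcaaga
Ighv1-81 (chr12:115920279-115920338, minus strand): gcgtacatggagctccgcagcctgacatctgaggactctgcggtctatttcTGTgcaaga
Igkv3-2 (chr6:70699008-70699067, plus strand): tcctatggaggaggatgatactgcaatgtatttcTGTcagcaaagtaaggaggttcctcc
Igkv4-53 (chr6:69648824-69648883, minus strand): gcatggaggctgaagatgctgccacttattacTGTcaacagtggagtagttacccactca
Igkv6-15 (chr6:70406469-70406528, minus strand): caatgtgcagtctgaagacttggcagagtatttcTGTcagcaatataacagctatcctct
Among the 4 heavy ends, all of the Ighv1 family, pairs were identical at 52 to 57 of 60 bases. The 3 kappa ends came from different families and, set side by side without alignment, pairs were identical at 12 to 36 of 60 bases. Over whole transcripts, the longest stretch that a listed V segment had in common with another annotated V segment of its locus ran from 22 to 152 bases, with a median of 88.5, and 16 of 40 listed V segments had one of at least 100 bases.

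J segments close the variable exon, and the 4 listed ones are shown because their length limits what can be counted on them. Capitals mark the bases of the conserved motif that starts with tryptophan and glycine in the heavy chain and with phenylalanine and glycine in the kappa chain.
Ighj1 (chr12:113429781-113429833, minus strand): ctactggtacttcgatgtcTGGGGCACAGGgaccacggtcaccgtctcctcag
Ighj3 (chr12:113429085-113429132, minus strand): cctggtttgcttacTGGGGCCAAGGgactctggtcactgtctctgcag
Ighj4 (chr12:113428514-113428567, minus strand): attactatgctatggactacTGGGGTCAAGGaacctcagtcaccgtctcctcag
Igkj4 (chr6:70723548-70723585, plus strand): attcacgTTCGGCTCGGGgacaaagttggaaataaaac
They measured 38 to 54 bases and held 3 counts in all in ApoE shRNA with FC, 34 in control shRNA with FC and 7 in control shRNA without FC. J counts were thus too few to compare 1 segment with another.

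Immunoglobulin counts were far lower in the hippocampus of ApoE shRNA with FC than in that of control shRNA with FC. The 53 genes summed to 217 counts in ApoE shRNA with FC, 19930 in control shRNA with FC and 2416 in control shRNA without FC. As levels these were 11.5, 1120 and 133 CPM in that order, which is 0.00115%, 0.112% and 0.0133% of all counts. The level in ApoE shRNA with FC was 97.6-fold lower than in control shRNA with FC (85.4 to 112), a log2 ratio of -6.61 (-6.81 to -6.42). Against control shRNA without FC it was 11.6-fold lower (10.1 to 13.4). Between the control libraries, the level with FC was 8.42-fold higher than without FC (8.08 to 8.79).

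Gene by gene, most rows were empty in ApoE shRNA with FC. There, 43 of 53 rows were at 0, against 0 rows in control shRNA with FC and 4 in control shRNA without FC. Of the 53 members, 44 reached 10 counts in 1 of the libraries compared. All 44 were at least 2-fold lower in ApoE shRNA with FC than in control shRNA with FC. Of all genes, 14.5% were at least 2-fold lower and 3.12% at least 2-fold higher. Apart from Ighm, every member had at most 6 counts in ApoE shRNA with FC. These members reached 10 counts only in control shRNA with FC, where they were high, so the count minimum itself favoured this direction. The members' median log2 ratio, with zeros set to 3 counts, was -4.50. Of the 44 members, 36 were at 0 in ApoE shRNA with FC, so this median is a limit set by that floor. Over all genes the median was -0.07, computed without setting zeros to 3 counts. Against control shRNA without FC, 24 of 25 members with 10 counts were lower and Ighm lay within 2-fold. Of all genes, 5.73% were lower and 2.08% higher there. Here too, members other than Ighm reached 10 counts only in the control library.

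With FC against without FC in the control libraries, 41 of 45 members were at least 2-fold higher, beside 10.7% of all genes. Only 25 members reached 10 counts in control shRNA without FC or ApoE shRNA with FC. Many of the 45 thus passed the count minimum only through control shRNA with FC, where they were high, which favoured this direction. Over the 16 V segments with at least 10 counts in both control libraries, the median ratio was 2.85 and 3 ratios were below 1. Ighv1-7 and Igkv6-15 were lower, a direction shown by 4.12% of all genes, and Igkv10-96 and Igkv12-44 lay within 2-fold; these 4 are named for their values. The median log2 ratio over members was 2.84, against 0.03 over all genes, both without setting zeros to 3 counts. With zeros set to 3 counts, the members' median was 2.50. Both control comparisons use the same library of control shRNA with FC, so they are not independent of each other.

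**Figure D1:**
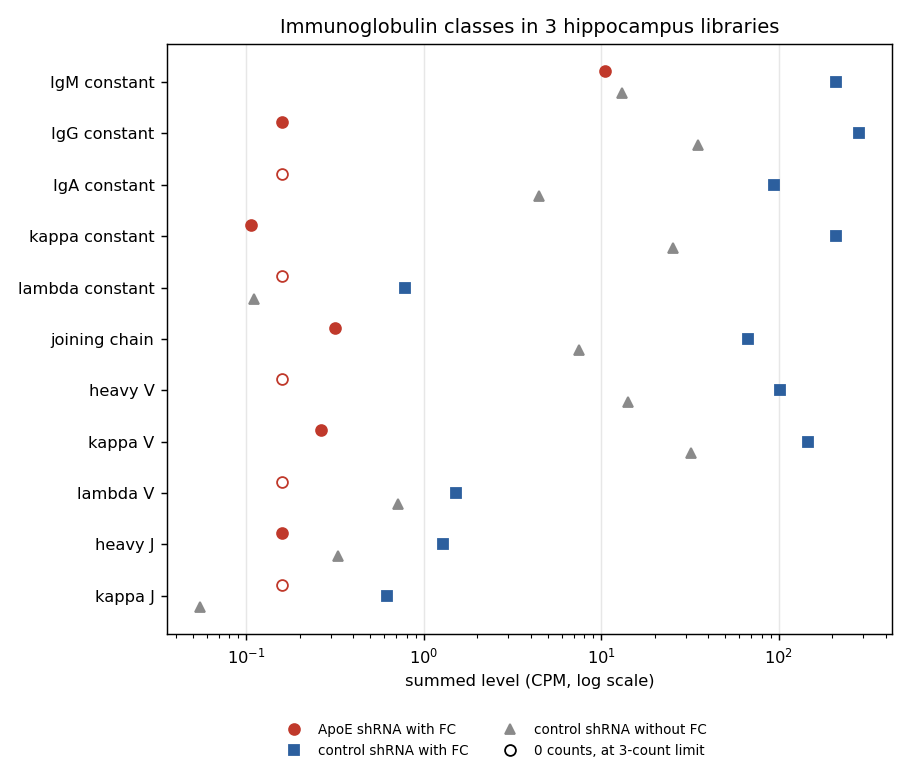
Summed level of each immunoglobulin class in CPM (log axis) in the hippocampus libraries of ApoE shRNA with FC, control shRNA with FC and control shRNA without FC; open symbols mark 0 counts, drawn at the level of 3 counts. Control shRNA with FC is highest in every class; for IgM, ApoE shRNA with FC lies at 10.5 CPM and control shRNA without FC at 13.1 CPM.

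Ighm, the constant region of IgM, held most of what was left in ApoE shRNA with FC. It had 198 counts in ApoE shRNA with FC, 3750 in control shRNA with FC and 238 in control shRNA without FC. The values of ApoE shRNA with FC and control shRNA without FC lay close together, and that of control shRNA with FC lay far above both. In levels, ApoE shRNA with FC was 20.1-fold lower than control shRNA with FC (17.4 to 23.3) and 1.25-fold lower than control shRNA without FC (1.03 to 1.52). Ighm made up 91.2% of the immunoglobulin counts in ApoE shRNA with FC (86.7 to 94.6), 18.8% in control shRNA with FC (18.3 to 19.4) and 9.85% in control shRNA without FC (8.69 to 11.1).

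The light chain gene that pairs with most mouse heavy chains did not follow Ighm. Igkc, the kappa constant region, had 2 counts in ApoE shRNA with FC, 3722 in control shRNA with FC and 461 in control shRNA without FC. It was nearly absent in the first library and plentiful in the other 2. Its level in ApoE shRNA with FC was 1977-fold lower than in control shRNA with FC (547 to 16332) and 240-fold lower than in control shRNA without FC (66 to 1986). Of the counts on Ighm and Igkc together, Ighm took 99% in ApoE shRNA with FC (96.4 to 99.9), 50.2% in control shRNA with FC (49 to 51.3) and 34% in control shRNA without FC (30.5 to 37.7).

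Without Ighm, the other 52 members summed to 19 counts in ApoE shRNA with FC, 16180 in control shRNA with FC and 2178 in control shRNA without FC. Their level in ApoE shRNA with FC was 905-fold lower than in control shRNA with FC (579 to 1503) and 119-fold lower than in control shRNA without FC (76.2 to 198). Jchain held 6 of the 19 counts.

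The 4 IgG constant regions are the class-switched genes of systemic antibody responses. They summed to 3 counts in ApoE shRNA with FC, 5078 in control shRNA with FC and 639 in control shRNA without FC. All 3 counts in ApoE shRNA with FC were on Ighg2c. The summed IgG level there was 1798-fold lower than in control shRNA with FC (615 to 8723), and in control shRNA with FC it was 8.12-fold higher than without FC (7.47 to 8.83).

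IgG genes differed in which of them led. Ighg2c had 3 counts in ApoE shRNA with FC, 2910 in control shRNA with FC and 127 in control shRNA without FC. Ighg2b had 0 counts in ApoE shRNA with FC, 1777 in control shRNA with FC and 425 in control shRNA without FC. Ighg2c thus led with FC and Ighg2b without FC in the control libraries: Ighg2c took 57.3% of IgG counts with FC (55.9 to 58.7) and 19.9% without FC (16.8 to 23.2), while Ighg2b took 35% with FC (33.7 to 36.3) and 66.5% without FC (62.7 to 70.2). Ighg1 had 0, 207 and 40 counts in ApoE shRNA with FC, control shRNA with FC and control shRNA without FC. Ighg3 had 0, 184 and 47 counts in the same order. With FC, Ighg2c was 23.4-fold higher than without FC (19.6 to 28.2), Ighg1 5.29-fold (3.75 to 7.61), Ighg2b 4.27-fold (3.84 to 4.76) and Ighg3 4-fold (2.89 to 5.63). The interval of Ighg2c did not overlap those of the other 3, which overlapped each other. IgG genes are near copies in parts, so the split of reads between them is uncertain.

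Igha, the constant region of the mucosal class IgA, had 0 counts in ApoE shRNA with FC, 1676 in control shRNA with FC and 81 in control shRNA without FC. With the floor of 3 counts in a library, its level in ApoE shRNA with FC was 594-fold lower than in control shRNA with FC. Against control shRNA without FC it was 28.1-fold lower. The exact intervals of these ratios began lower, at 482-fold and 22.3-fold. In control shRNA with FC the level of Igha was 21.1-fold higher than without FC (16.9 to 26.7). IgA took 16% of heavy constant counts in control shRNA with FC (15.3 to 16.7) and 8.46% in control shRNA without FC (6.77 to 10.4). IgG took 1.49% in ApoE shRNA with FC, 48.3% in control shRNA with FC and 66.7% in control shRNA without FC.

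Jchain, which polymer-forming IgM and IgA need, had 6 counts in ApoE shRNA with FC, 1201 in control shRNA with FC and 136 in control shRNA without FC. Its level in ApoE shRNA with FC was 213-fold lower than in control shRNA with FC (97.4 to 581) and 23.6-fold lower than in control shRNA without FC (10.6 to 65.4). With FC it was 9.02-fold higher than without FC in the control libraries (7.55 to 10.8). Jchain in ApoE shRNA with FC was thus low as Igkc was, and unlike Ighm.

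Lambda chains, a minor light chain type in mice, were rare. Iglc1 had 0 counts in ApoE shRNA with FC, 14 in control shRNA with FC and 2 in control shRNA without FC, which is 0.375% of light constant counts in control shRNA with FC (0.205 to 0.628) and 0.432% in control shRNA without FC (0.0524 to 1.55). The lambda V segment Iglv1 had 0, 27 and 13 counts in ApoE shRNA with FC, control shRNA with FC and control shRNA without FC. Igkc and Igkj4 lie within the gene model Gm30211 on the same strand, and Iglv1 and Iglc1 overlap 2010309G21Rik on the opposite strand; how reads there were assigned is not given in the sources used here, so these counts are uncertain.

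Per kilobase of annotated exon, Ighm was the highest member in ApoE shRNA with FC at 5.56 CPM per kb. Annotated exon lengths were uneven among heavy constant regions. They were 1326 bases for Ighg2c, 1886 for Ighm, 2678 for Ighg2b and 2668 for Igha. The ranks of these genes per kilobase therefore depend on the annotation. There Igkc stood at 0.199 CPM per kb, Jchain at 0.126 and Ighg2c at 0.12. In control shRNA with FC, Igkc led with 393 CPM per kb, and among constant regions and Jchain it was followed by Ighg2c with 123, Ighm with 112, Ighg2b with 37.3, Igha with 35.3 and Jchain with 26.8 CPM per kb. Of V segments there, Igkv3-2 with 109, Ighv1-26 with 78.5 and Igkv4-53 with 63.4 CPM per kb, and also Ighv1-9, lay between Ighm and Ighg2b. In control shRNA without FC, Igkc led with 47.7 CPM per kb, and among constant regions Ighg2b with 8.74, Ighm with 6.95 and Ighg2c with 5.27 CPM per kb came next. Igkc therefore stood above every heavy constant region per length in both control libraries and below Ighm in ApoE shRNA with FC.

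**Figure D2:**
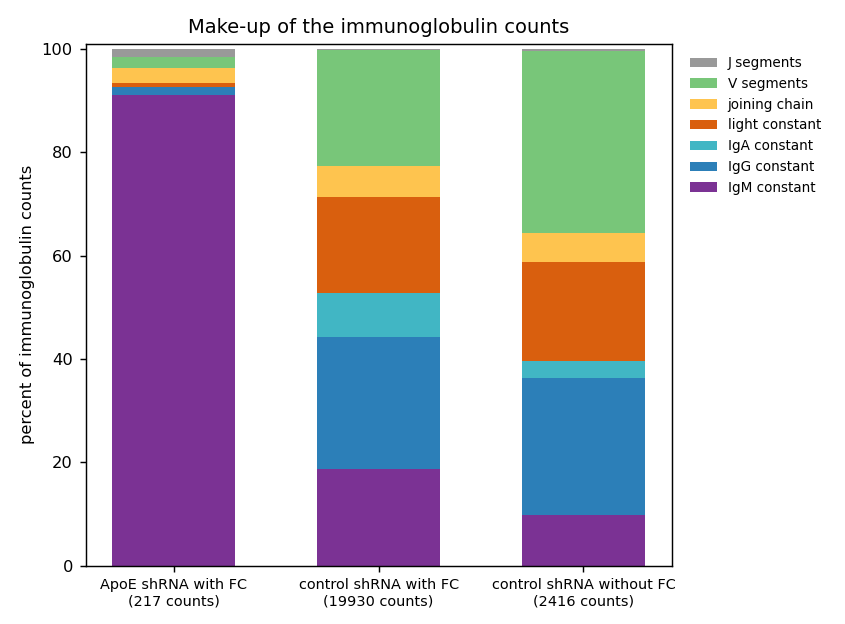
Percent of immunoglobulin counts (vertical axis) on each kind of gene in the libraries of ApoE shRNA with FC, control shRNA with FC and control shRNA without FC, left to right, with the number of counts under each bar. IgM constant counts fill 91.2% of the bar of ApoE shRNA with FC, 18.8% of that of control shRNA with FC and 9.85% of that of control shRNA without FC.

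V segments give the part of the antibody that binds antigen. They summed to 5 counts in ApoE shRNA with FC, 4455 in control shRNA with FC and 852 in control shRNA without FC. The 17 heavy V segments had 0, 1815 and 256 counts in that order. With the floor of 3 counts, their level in ApoE shRNA with FC was 643-fold lower than in control shRNA with FC. Against control shRNA without FC it was 88.8-fold lower. The exact intervals of these ratios began lower, at 522-fold and 71.7-fold. The 22 kappa V segments had 5, 2613 and 583 counts in the same order of libraries. With 198 counts on Ighm, no count fell on a listed heavy V segment in ApoE shRNA with FC: 0 of 201 heavy V and heavy constant counts (0 to 1.82%), against 14.7% in control shRNA with FC (14.1 to 15.4) and 21.1% in control shRNA without FC (18.8 to 23.5). V segments that only ApoE shRNA with FC held would not be listed.

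In control shRNA with FC, a few of the listed V segments held most of the counts of their locus. Segments read in that library alone, or in control shRNA without FC alone, are not listed. Shares and leaders therefore hold among the listed segments only. Of heavy V counts, Ighv1-9 had 633, Ighv1-26 490 and Ighv1-50 205, together 73.2%. Of kappa V counts, Igkv3-2 had 734, Igkv4-53 414 and Igkv8-24 241, together 53.2%. Control shRNA without FC had other leaders. Its heavy V counts were led by Ighv1-7 with 67, Ighv1-81 with 53 and Ighv1-26 with 32, together 59.4%, and its kappa V counts by Igkv4-53 with 119, Igkv6-15 with 117 and Igkv5-48 with 74, together 53.2%. Ighv1-26 and Igkv4-53 were the only segments among the 3 leading ones of their locus in both control libraries. In ApoE shRNA with FC, Igkv8-30 had 2 counts, and Igkv16-104, Igkv6-32 and Igkv8-19 had 1 each.

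The V segments differed widely among themselves between the control libraries. Igkv3-2 had 0 counts in ApoE shRNA with FC, 734 in control shRNA with FC and 4 in control shRNA without FC, so that it was 187-fold higher with FC than without FC (72.9 to 690). Ighv1-9 had 0, 633 and 17 counts in the same order of libraries and was 38-fold higher with FC than without FC (23.6 to 65.7). Ighv1-7 ran the other way, with 0 counts in ApoE shRNA with FC, 9 in control shRNA with FC and 67 in control shRNA without FC, and was 7.29-fold lower with FC than without FC (3.62 to 16.6). Igkv6-15 also ran the other way, with 27 counts with FC and 117 without FC in the control libraries, 4.24-fold lower (2.77 to 6.71).

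Over the 37 V segments with counts in both control libraries, the ratio with FC over without FC ran from 0.137 to 187 with a median of 4.01, and 7 ratios were below 1. Over the 16 with at least 10 counts in both, it ran from 0.236 to 38 with a median of 2.85. The 8 constant regions ran from 4 (Ighg3) to 23.4 (Ighg2c), with a median of 7.7 and no ratio below 1. Across the 40 V segments, Spearman's rho between the counts of the control libraries was 0.36, given as a description, since the segments share libraries and reads. The listing also touches this set: Igkv16-104, Igkv6-32, Igkv8-30 and Ighj3 were at 0 without FC and are in the table because ApoE shRNA with FC held 1 or 2 counts of each. Igkv6-32 had 1 count in ApoE shRNA with FC, 176 in control shRNA with FC and 0 in control shRNA without FC. With the floor of 3 counts, it was 59.9-fold higher with FC than without FC in the control libraries, and the exact interval began at 48.2-fold.

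**Figure D3:**
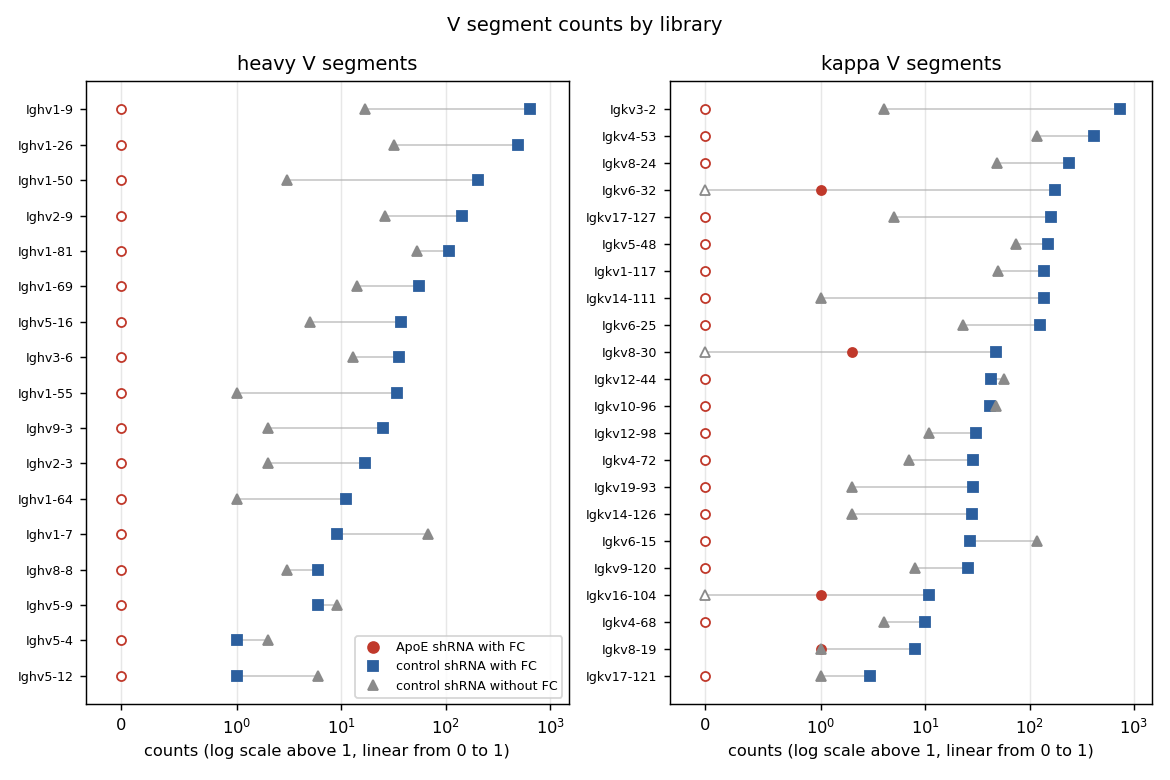
Counts of each listed heavy and kappa V segment (horizontal axis, logarithmic above 1 count) in ApoE shRNA with FC, control shRNA with FC and control shRNA without FC, ordered by control shRNA with FC; open symbols are at 0. All 17 heavy V segments are at 0 in ApoE shRNA with FC, and Ighv1-7 and Igkv6-15 stand out with fewer counts with FC than without FC in the control libraries.

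Several marker lists of immune cells were, like the immunoglobulin counts, highest in control shRNA with FC. That of hippocampal neurons was lowest there, and that of red cells was highest in control shRNA without FC. The part of these lists in the differences was not tested. Of 14 B cell markers, 13 were listed, summing to 8.52 CPM in ApoE shRNA with FC, 44.1 in control shRNA with FC and 9.74 in control shRNA without FC. The tetraspanin gene Cd37 had 87, 414 and 82 counts in that order, and Cd22, an inhibitory receptor of B cells, had 4, 172 and 6. Of the 8 B cell markers that reached 10 counts in control shRNA with FC or without FC, 5 were at least 2-fold higher with FC. None was at least 2-fold lower. Some, Cd22 among them, reached 10 counts only with FC, so the count minimum favoured this direction. Of all genes, 10.7% were higher and 4.12% lower. Bank1, with 15, 15 and 27 counts in ApoE shRNA with FC, control shRNA with FC and control shRNA without FC, and Fcer2a, with 29, 20 and 25, had fewer counts with FC than without FC. The sum of the B cell list stood in ApoE shRNA with FC near its level in control shRNA without FC, as Ighm did, with a summed level 1.14-fold lower. Bank1, Fcer2a and Cd79a, a part of the B cell receptor, were chosen after their values were seen; Cd79a had 2, 64 and 11 counts in the same order of libraries. Fcrla was at 0 in ApoE shRNA with FC, Ms4a1 and Spib were at 0 in control shRNA without FC, and no listed B cell marker was at 0 in control shRNA with FC.

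All 10 plasma cell markers were listed and summed to 92.2 CPM in ApoE shRNA with FC, 153 in control shRNA with FC and 88.4 in control shRNA without FC. Most of this was Xbp1, a regulator of secretion that many cells express, with 1578, 2232 and 1460 counts, and Derl3 had 63, 74 and 23. Mzb1, Pou2af1 and Tnfrsf17 were the list's genes at 0 in ApoE shRNA with FC. Mzb1, which helps antibody assembly, had 57 counts in control shRNA with FC and 18 in control shRNA without FC, and Pou2af1, a coactivator of immunoglobulin genes, had 69 and 4; these genes were picked for their zeros. Of 6 genes of B cell precursors, 2 were listed: Dntt with 5, 3 and 6 counts and Rag1 with 4, 3 and 8 counts in ApoE shRNA with FC, control shRNA with FC and control shRNA without FC. They summed to 0.476, 0.337 and 0.771 CPM in that order, from too few counts to set an order over the libraries.

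Receptors that bind antibody stood high in the library with the most immunoglobulin counts. Of 10 such genes, 8 were listed, summing to 37 CPM in ApoE shRNA with FC, 258 in control shRNA with FC and 43.2 in control shRNA without FC. Fcgr3, a receptor for IgG on myeloid cells, had 161, 1072 and 171 counts in that order, and Fcgrt, the receptor that recycles IgG, had 315, 528 and 299. Fcmr, the receptor for IgM, was at 0 in ApoE shRNA with FC and had 4 counts in control shRNA with FC and 1 in control shRNA without FC. The receptor sum was 1.17-fold lower in ApoE shRNA with FC than in control shRNA without FC, where the immunoglobulin sum was 11.6-fold lower.

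T cell markers summed to 2.86 CPM in ApoE shRNA with FC, 60.8 in control shRNA with FC and 3.19 in control shRNA without FC, with 10 of 12 listed. Cd8a had 0, 323 and 5 counts and Lck had 36, 133 and 29 in that order. Cd2, Cd3d, Cd3e and Cd8a were at 0 in ApoE shRNA with FC, and Cd247 and Cd8b1 were at 0 in control shRNA without FC. Microglia markers, 10 of 10 listed, summed to 306, 1673 and 408 CPM in ApoE shRNA with FC, control shRNA with FC and control shRNA without FC. Among them C1qa had 692, 8066 and 848 counts and Csf1r 1689, 4060 and 1954. Of 8 neutrophil markers, 4 were listed, at 0.37, 1.69 and 0.11 CPM in the same order, with Ltf at 1, 23 and 0 counts and S100a8 at 0, 4 and 2.

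The summed levels of red cell and tissue markers differed less between libraries than the immunoglobulin sum, and some ran the other way. Erythrocyte and blood markers, 5 of 6 listed, summed to 24.9 CPM in ApoE shRNA with FC, 44.8 in control shRNA with FC and 72.8 in control shRNA without FC, so that the library with the most immunoglobulin counts was not the one with the most globin. Hba-a1 had 184, 309 and 539 counts and Hbb-bs 219, 389 and 610 in that order. Vessel markers summed to 116, 236 and 195 CPM (Flt1 801, 1738 and 1388 counts, Vwf 308, 918 and 407), with all 6 listed. Meningeal fibroblast markers, 6 of 6 listed, summed to 109, 168 and 133 CPM (Dcn 916, 451 and 988 counts, Igf2 798, 1658 and 982). Choroid plexus markers, 6 of 6 listed, summed to 26.6, 52.8 and 23.5 CPM, with Ttr at 46, 602 and 19 counts and Kl at 441, 268 and 388. That sum hides single markers that differed more. Ttr was 32.4-fold higher with FC than without FC in the control libraries (20.5 to 54.1), while Kl was lower. Of 4 choroid plexus markers that reached 10 counts there, 3 were at least 2-fold higher with FC, beside 10.7% of all genes. Clic6 and Otx2 reached 10 counts only with FC, so the count minimum favoured this direction. Of hippocampal neuron markers, Slc17a7 had 31499, 19446 and 28271 counts and Wfs1 4014, 3385 and 2491 in that order. Fibcd1, a marker of CA1 neurons named for its values, had 3414, 639 and 3196 counts, so that it was 4.9-fold lower in control shRNA with FC than in control shRNA without FC (0.187 to 0.222 as a ratio).

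**Figure D4:**
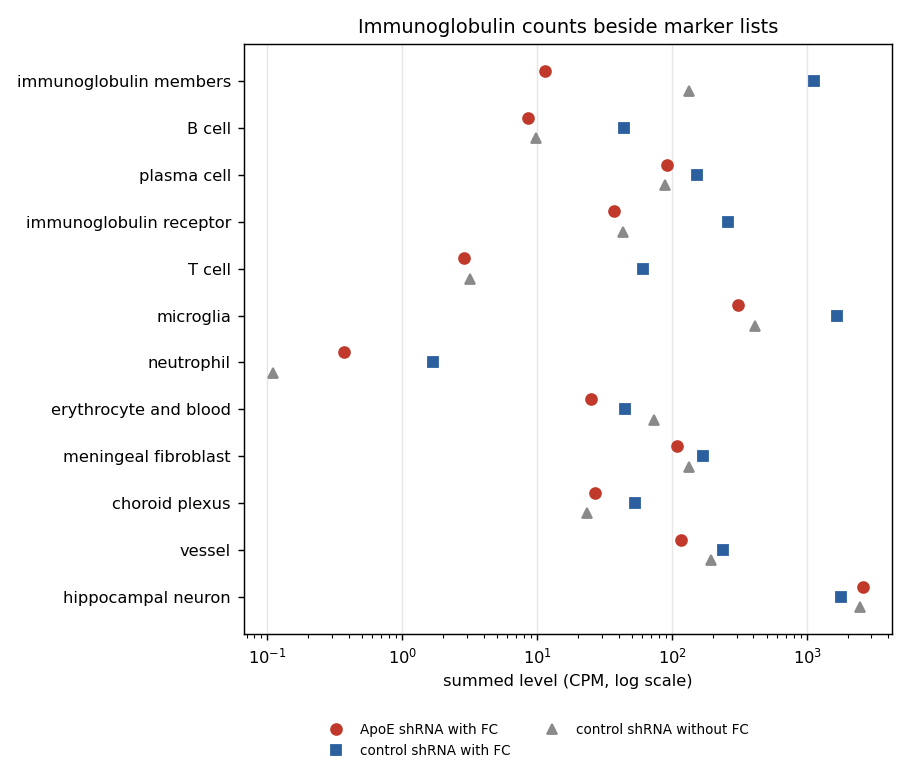
Summed level (CPM, log axis) of the immunoglobulin genes and of 11 marker lists in ApoE shRNA with FC, control shRNA with FC and control shRNA without FC. Between ApoE shRNA with FC and control shRNA without FC the immunoglobulin sums are 11.5 and 133 CPM, while the B cell sums are 8.52 and 9.74 CPM.

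Primary neurons, cultured cells that should hold no B lineage cells, gave the background for the same gene identifiers. The neuron tables listed 3 of the 53 in the ADM experiment, 5 in set 1 and 3 in set 2. Per library they held 1 to 17 counts over 14 libraries, 0.0684 to 0.961 CPM with a median of 0.441. The hippocampus of ApoE shRNA with FC stood 12-fold above the highest neuron library, control shRNA with FC 1166-fold and control shRNA without FC 138-fold. The tables were processed separately, so these ratios set levels side by side without a common scaling. The 53 genes were also chosen for their counts in hippocampus, which favours higher ratios. With rows found by name in the neuron tables themselves, the highest neuron library, ADM replicate 2, held 1.2 CPM.

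Jchain made up 86 of the 109 counts on these genes in neurons, 78.9%. It had 1 to 12 counts per neuron library, so that the 6 counts of Jchain in the hippocampus of ApoE shRNA with FC lay within the range seen in cultured neurons. Ighm was listed with 0 counts in all 4 ADM experiment libraries, and in set 1 it had 6 and 6 counts with ApoE particle and 3 and 4 in control. Its 198 counts in ApoE shRNA with FC lay far above these. Single counts of Igkc and Ighv5-16 were the others of set 1, and in set 2 Iglc1 had 2 counts in all, in a control library.

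By group, the summed level was 0.363 ± 0.417 CPM in ADM neurons and 0.417 ± 0.000921 CPM in their control (SD, n = 2 each). It was 0.818 ± 0.0825 CPM with ApoE particle and 0.733 ± 0.322 CPM in control in set 1 (SD, n = 2 each). In set 2 it was 0.15 ± 0.0447 CPM with reconstituted particle, 0.32 ± 0.214 CPM with ApoE particle and 0.403 ± 0.0861 CPM in control (SD, n = 2 each). With 2 libraries a group and few counts, these sums were given no test.

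No member passed edgeR's filter on low counts in any neuron table: 0 of 3 in the ADM experiment, 0 of 5 in set 1 and 0 of the 2 with values in every library in set 2. Fitted without that filter, 1 member with counts in the ADM experiment, 4 in set 1 and 2 in set 2 could be tested, and edgeR's quasi-likelihood test with Benjamini-Hochberg adjustment called none of them at 0.05. None had an unadjusted p under 0.05, and DESeq2 called 0. The background in that fit was 0.323% of genes higher and 0.0988% lower for ADM over its control, and 11.2% higher and 10.8% lower for ApoE particle over control in set 1. In set 2 it was 6.25% higher and 7.2% lower for ApoE particle over control, 0.0142% in each direction for reconstituted particle over control, and 6.83% higher and 5.66% lower for reconstituted particle over ApoE particle. Jchain had a log2 fold change of -0.21 for ADM over its control (edgeR adjusted p 0.965) and -0.35 for ApoE particle over control in set 1 (edgeR adjusted p 0.782).

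**Figure D5:**
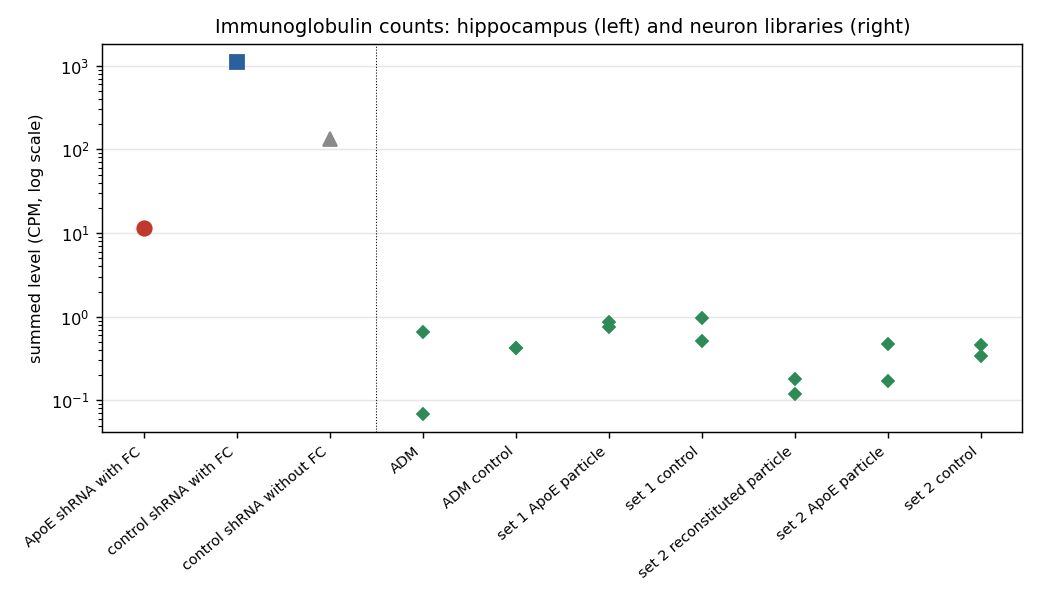
Summed level of the immunoglobulin genes (CPM, log axis) in the hippocampus libraries, with 1 symbol per group, and in the neuron libraries, with 2 symbols per group. The hippocampus libraries stand at 11.5, 1120 and 133 CPM, and the neuron libraries at 0.0684 to 0.961 CPM.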

How the data were processed

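The deposited values are raw gene counts, whole numbers to which the authors had applied no normalization. Per the submitters' processing notes, Bowtie2 2.2.3, HISAT2 2.1.0 and HTSeq 0.6.0 were used with build mm10; the sources used here give neither their roles nor the strand setting. Libraries were made from 2 μg of total RNA, per the labels' protocols. All per-sample columns were used.

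Counts were summed per class and divided by each library's total (CPM), without a correction for length unless stated. Hippocampus ratios carry exact 95% binomial intervals, with a floor of 3 counts for a library at 0; reads without molecular identifiers are not independent molecules, so intervals and floors cover counting error only. Members were called at 2-fold and 10 counts in 1 of the libraries compared. Neuron tables, each on its own, were fitted with edgeR 4.0.16 in R 4.3.3 (filterByExpr, TMM, quasi-likelihood test, Benjamini-Hochberg adjustment over all genes of the table, threshold 0.05; the 3 groups of set 2 shared a fit), with DESeq2 1.42.0 as an alternative. Nothing says that the 2 libraries of a neuron group came from separate cultures, so p-values measure the spread between these samples, which may be technical. Other scalings, count minimums, subsets of members, a replicate block and leaving out single libraries were tried. Scripts were tested on simulated data.

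Named genes were every constant region and Jchain, the 3 V segments of each locus with the most counts in each library, the neuron members with the most counts, and the 2 genes of each marker list with the most counts; others are named as chosen for their values. Members and lists were chosen with earlier results of these data known. Sequences are from GENCODE release M21, with no UTR bases.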

Additional observations from a re-analysis of the deposited data

How the results depend on the processing

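Under TMM scaling and under DESeq2 size factors, the log2 ratio of the summed immunoglobulin counts kept its direction and stayed within its counting interval, for ApoE shRNA with FC over control shRNA with FC and for control shRNA with FC over without FC. So did those of IgM, IgG and kappa constant regions, Jchain and kappa V in both comparisons, and those of Igha and heavy V in the second. Lambda genes, J segments and classes against control shRNA without FC were not rescaled. For ApoE shRNA with FC over control shRNA with FC, the ratio was -9.82 without Ighm, -6.22 over constant regions only and -9.89 over V segments only. With control shRNA without FC in place of control shRNA with FC, a comparison added after seeing the data, it was -3.53. For control shRNA with FC over without FC it was 2.92 without Ighm, 3.36 over constant regions and 2.42 over V segments. With 100 counts needed in 1 of the libraries compared, the genes past 2-fold numbered 106 higher and 1184 lower for ApoE shRNA with FC over control shRNA with FC, and 835 higher and 148 lower for control shRNA with FC over without FC.

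In neurons, the summed level over constant regions only was 0 CPM in ADM, its control, set 2 reconstituted particle and set 2 ApoE particle, 0.365 in set 1 ApoE particle, 0.236 in set 1 control and 0.057 in set 2 control. TMM scaling put the ADM control at 0.425 CPM.

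Over all genes, edgeR called 0 for ADM over its control, 128 without the filter on low counts and 304 with DESeq2. Leaving out single libraries gave 0 to 641, the highest without ADM replicate 1. For set 1 ApoE particle over control it called 5993, with 3521 to 7610 when single libraries were left out, the lowest without ApoE particle replicate 2. In set 2, ApoE particle over control gave 3617 (DESeq2 2366, single libraries left out 2297 to 2942), reconstituted particle over control 0 (8 without the filter, single libraries left out 1 to 4), and reconstituted particle over ApoE particle 3319 (DESeq2 2183, single libraries left out 2249 to 2809). A left-out library leaves its group with 1, which is then assumed to vary like the others.

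Replicate numbers are shared between groups, but with 2 numbers they do not establish pairs: deviations of same-numbered libraries correlated at 0.48 in the ADM experiment, 0.02 in set 1 and -0.08 to 0.04 in set 2. With the replicate number as a block, the calls numbered 465 for ADM, 6386 in set 1, and in set 2 3248 for ApoE particle over control, 1 for reconstituted particle over control and 2974 for reconstituted particle over ApoE particle. No result reversed, and the cause of each move was not tested beyond what a setting leaves out by construction.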

Other observations

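Ighd, the constant region of IgD that naive B cells carry together with IgM, lay outside the set of rows and was looked up after the other values were seen. It had 2 counts in ApoE shRNA with FC, 5 in control shRNA with FC and 11 in control shRNA without FC. Ighm had 198, 3750 and 238 counts in the same order of libraries. Counts of Ighd were too few to set an order over the libraries.

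Immunoglobulin rows of the neuron tables were sparse also when found by name, which adds rows that are not among the 53 of the hippocampus. By name the ADM table held 20 rows, set 1 held 11 and set 2 held 11, with 3 to 20 counts in all per library.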
